A study of Mus musculus with 12 samples.

Results

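Imatinib exposure for 32 h, the shortest in the series, was compared with vehicle in OP9 cells. The comparison used the 3 arrays labelled imatinib at 32 h and the 3 arrays labelled vehicle at 0 h, which are 6 of the 12 arrays of the series, and they were chosen by these labels alone and not by any measured value. OP9 is a mouse stromal line derived from newborn calvaria of B6C3F1 op/op animals. The op/op genotype, which deprives the animal of functional macrophage colony stimulating factor, is shared by the vehicle and imatinib cells. All arrays therefore carry RNA of 1 line, and the labels do not say whether the 3 replicates of a group were separate cultures, so p-values measure the spread between these samples, which may be technical. The dose of imatinib is not given in the sources used here. The description of the series speaks of vehicle or imatinib over 32, 64 and 96 h, whereas the sample labels place vehicle at 0 h; drug exposure and time in culture cannot be told apart in this comparison. The 3 vehicle arrays carry array label 1 and the 3 imatinib 32 h arrays carry array label 2, so array label and group cannot be told apart either. The study's title places these cells in the setting of stroma-mediated drug resistance of BCR-ABL-positive acute lymphoblastic leukaemia.

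Imatinib is a kinase inhibitor that blocks the Abl kinases, the receptor Kit, the platelet-derived growth factor receptors, the receptor Csf1r and the collagen receptors Ddr1 and Ddr2, and it also binds the oxidoreductase Nqo2. Receptor tyrosine kinases signal to a large extent through the kinase ERK, which induces immediate early transcription factors, its own feedback inhibitors and the D cyclins that lead cells into S phase. OP9 cells are used as a feeder layer for blood cell progenitors, because they secrete factors such as the chemokine Cxcl12, and they can be turned into fat cells. Marker genes matched the label of the cells: 15 of 19 stromal markers were measured above background, among them Pdgfra, Pdgfrb, Prrx1, Col1a1 and Vim, against 2 of 13 B lymphoid, 3 of 12 endothelial, 2 of 10 T and NK, 3 of 11 muscle, 3 of 10 epithelial, 3 of 9 erythroid, 6 of 16 myeloid and 5 of 10 neural markers.

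Probe intensities were background-corrected, quantile-normalised over the 12 arrays and expressed as log2; a level below is a log2 intensity. A change is the mean level at 32 h minus the mean level in vehicle, so that 1 unit is a 2-fold difference. A gene passed the test where its limma p, adjusted by the Benjamini-Hochberg method over all 18897 probes kept, was under 0.05. Of 10211 genes tested, 213 were higher at 32 h, or 2.09%, and 212 were lower, or 2.08%. When the arrays of each array label were normalised separately, 172 genes were higher and 283 lower, so that the higher genes were 37.8% of those called instead of 50.1%. In that setting the median change of all genes tested was -0.042, against 0.002 in the main fit. The part of this displacement in the shifted counts was not tested. The 3 and 3 arrays did not overlap in 2361 genes, or 23.1% of those tested, and among the called genes they were apart in 213 of 213 higher and in 211 of 212 lower ones. The median called gene differed 1.6-fold in either direction, and a change of at least 2-fold was reached by 33 of the higher and 30 of the lower genes. The 6 arrays were alike in brightness, with median signals of 104 to 112 and 36.2% to 38.3% of probes detected. Correlation of levels over all kept probes was 0.991 among vehicle arrays, 0.989 to 0.990 among 32 h arrays and 0.985 to 0.987 between the groups. In a plot of change against level, called genes appeared over the whole range of levels, with the proliferin gene Prl2c4 farthest below 0 and Slc24a3 farthest above it.

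**Figure D1:**
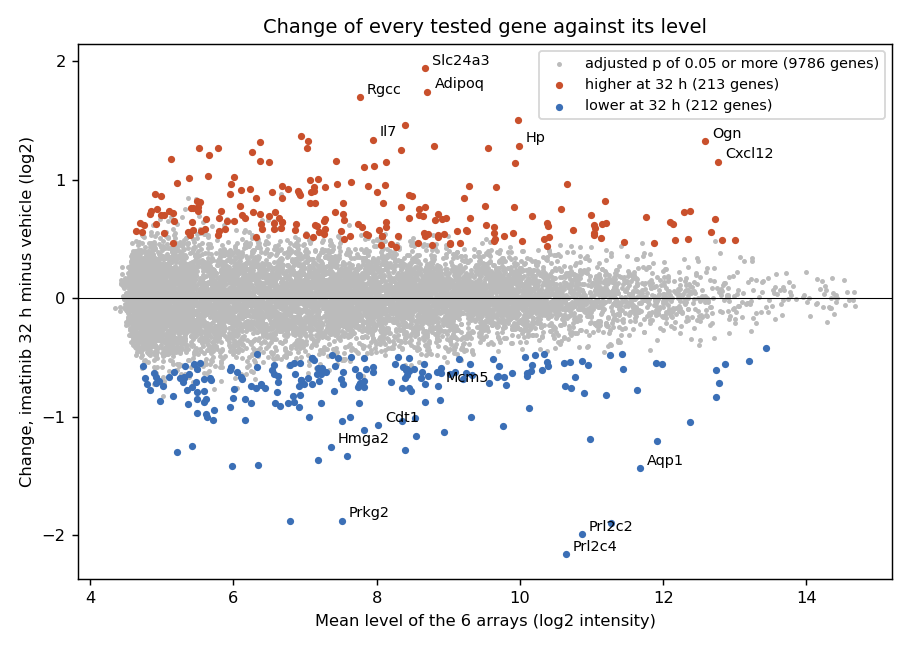
Each point is 1 of 10211 genes, with its mean level over the 6 arrays (log2 intensity) on the x axis and its change from vehicle to imatinib at 32 h (log2) on the y axis. The 213 higher genes are red, the 212 lower genes blue and all others grey; called genes lie at low and at high levels, and the 4 proliferin genes (Prl2c) lie near -2.

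The 20 largest increases and 20 largest decreases were taken from called genes whose arrays did not overlap between groups. That these genes lie apart is therefore a condition of the choice and not a result. The largest increase was in Slc24a3, followed by Adipoq, Rgcc, Aoc3 and Cdo1. Slc24a3, which encodes a potassium-dependent sodium and calcium exchanger, had levels of 7.44, 7.85 and 7.82 on the vehicle arrays and 9.70, 9.78 and 9.45 at 32 h. It rose by 1.94 ± 0.14 (log2 ± SE, n = 3 per group), which is 3.84-fold (limma adjusted p = 1.8e-06), and no 32 h array came near the vehicle range. Adipoq encodes adiponectin, the hormone secreted by fat cells. Its vehicle levels were 7.84, 7.90 and 7.77 and its 32 h levels 9.61, 9.60 and 9.53, an increase of 1.74 ± 0.11 (limma adjusted p = 1e-06). Both groups of 3 were tight. Rgcc, a regulator of cell cycle progression first described as a complement response gene, went from 6.95, 6.92 and 6.88 to 8.69, 8.58 and 8.56, up by 1.70 ± 0.13 (limma adjusted p = 3.8e-06). Aoc3, a cell surface amine oxidase also known as vascular adhesion protein, went from 9.14, 9.32 and 9.19 to 10.51, 10.81 and 10.86, and Cdo1, the cysteine dioxygenase that starts cysteine breakdown, from 7.77, 7.72 and 7.52 to 9.16, 9.24 and 8.99. These amount to changes of 1.51 ± 0.13 and 1.46 ± 0.14 (limma adjusted p = 9.7e-06 and 2.3e-05).

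The other 15 of the 20 largest increases ranged from 1.37 for Sort1 to 1.18 for Cxcl15. Il7, the growth factor of B cell progenitors, was the seventh largest and is described with the niche factors. The glutamate transporter Slc1a3 rose by 1.32 ± 0.13, the acute phase protein haptoglobin (Hp) by 1.29 ± 0.13, the imprinted gene Mest by 1.27 ± 0.12, and Palmd, which encodes palmdelphin, by 1.33 ± 0.14 (limma adjusted p = 4e-05, 3.3e-05, 2.8e-05 and 6.7e-05). Pid1, a phosphotyrosine-binding adaptor linked to insulin signalling in fat cells, rose by 1.23 ± 0.14, and Npr3, the clearance receptor of natriuretic peptides, by 1.21 ± 0.14 (limma adjusted p = 0.0001 and 0.00012). The 2 other Palmd probes changed by 0.24 and 1.17, and 1 of them passed the test. The 4 other Npr3 probes had changes of 0.00 to 0.96, and 1 of them passed the test. Sort1, a sorting receptor of the Golgi and endosomes, rose by 1.37 ± 0.14 (limma adjusted p = 4.9e-05), but its probes disagreed: of 2 others 1 rose by 0.92 and 1 changed by -0.26. The protease gene Adamts9 rose by 1.27 ± 0.16 (limma adjusted p = 0.00034) on its brightest probe, while its other probe changed by -0.08. The chemokine gene Cxcl15 was not detected on any vehicle array and was detected on all 3 arrays at 32 h; against the lowest detected signal it was at least 1.86-fold higher (limma adjusted p = 0.00017). In 12 of the 213 higher genes no vehicle array gave a detected signal, and in 9 of the 212 lower genes no 32 h array did. Where such a gene was detected in only 1 group of the series, it passed the detection filter through the group where it was high. The p of such a gene is not independent of that choice.

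**Figure D2:**
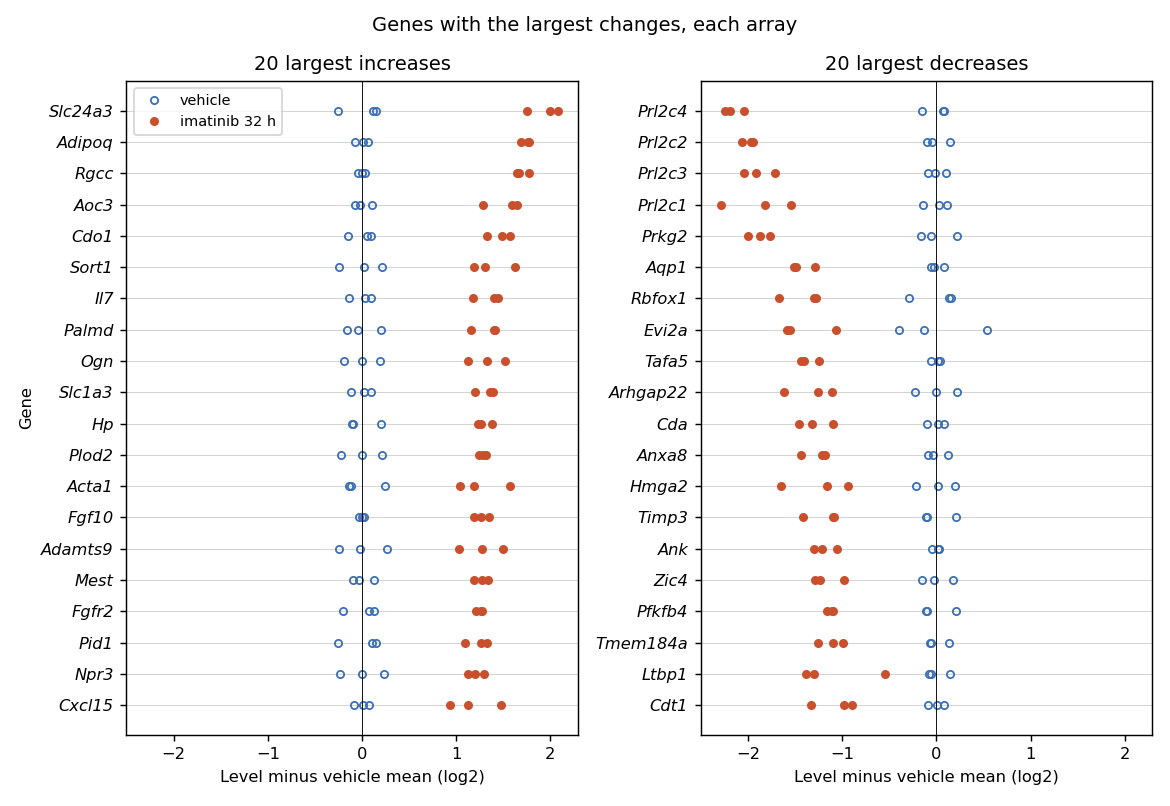
Level on each array minus the vehicle mean (log2, x axis) for the 20 genes with the largest increases (left) and the 20 with the largest decreases (right); open blue circles are the 3 vehicle arrays and filled red circles the 3 imatinib 32 h arrays. The 40 genes were taken from called genes whose arrays did not overlap, so the 2 sets of circles are apart by choice. Vehicle is most spread in Evi2a, and in Ltbp1 1 of the 3 arrays at 32 h lies nearer to vehicle than the other 2.

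The largest decreases belonged to the proliferins, prolactin-like secreted proteins that are named for their induction in growing fibroblasts. Of 5 proliferin genes listed 4 were measured, and all 4 fell. Prl2c2 had levels of 12.01, 11.76 and 11.81 on the vehicle arrays and 9.80, 9.91 and 9.90 at 32 h, and fell by 1.99 ± 0.13, or 3.97-fold (limma adjusted p = 1e-06). Prl2c4, Prl2c3 and Prl2c1 fell by 2.16 ± 0.12, 1.89 ± 0.13 and 1.88 ± 0.22. These genes are near-identical copies, and how far their probes tell them apart was not tested, so the 4 falls are not 4 separate observations. Prkg2, the membrane-bound cGMP-dependent protein kinase, had levels of 8.40, 8.29 and 8.67 in vehicle and 6.58, 6.46 and 6.69 at 32 h and fell by 1.88 ± 0.15 (limma adjusted p = 7.5e-06). The water channel gene Aqp1 was abundant in vehicle, at 12.33, 12.47 and 12.36, and stood at 10.87, 11.10 and 10.90 at 32 h. It fell by 1.43 ± 0.13 (limma adjusted p = 1.8e-05), and its 2 other probes changed by -1.85 and -1.58.

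Other large decreases were in single genes of varied function. The splicing factor gene Rbfox1 fell by 1.42 ± 0.15 and Hmga2, a chromatin protein of growing and embryonic cells, by 1.25 ± 0.17 (limma adjusted p = 5.9e-05 and 0.00061). Cda, the cytidine deaminase of pyrimidine salvage, was detected on 3 of 3 vehicle arrays and on none at 32 h and was at least 2.07-fold lower (limma adjusted p = 3e-05). No array at 64 h or 96 h detected Cda either. It thus passed the detection filter only through the vehicle arrays, where it was high, and its p is not independent of that choice. Tafa5, a secreted chemokine-like protein, fell by 1.36 ± 0.14 and the annexin Anxa8 by 1.28 ± 0.12 (limma adjusted p = 4.9e-05 and 3.2e-05). Ank, which exports pyrophosphate and so restrains mineral deposition, fell from 11.59, 11.52 and 11.59 to 10.51, 10.27 and 10.36, and Pfkfb4, which sets the level of a glycolysis activator, fell from 9.40, 9.40 and 9.72 to 8.40, 8.35 and 8.40 (limma adjusted p = 2.3e-05 and 0.00013). Evi2a, Zic4 and Tmem184a changed by -1.40 ± 0.23, -1.16 ± 0.15 and -1.11 ± 0.14, and the vehicle arrays of Evi2a were spread from 6.65 to 7.59. The other probes of Evi2a and Tmem184a changed by -0.64 and -0.33, and that of Tmem184a did not pass.

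Several genes of DNA replication fell. Of 40 measured replication genes 9 fell and none rose, a share of 22.5% against 2.08% of all genes tested, and 34 of the 40 changes were negative. Their median change was -0.30, with medians of -0.32, -0.24 and -0.30 on the 3 arrays at 32 h, while the median of all genes was 0.00. Cdt1, which loads the replicative helicase onto origins, had levels of 8.47, 8.65 and 8.57 in vehicle and 7.66, 7.58 and 7.23 at 32 h. It fell by 1.07 ± 0.15 (limma adjusted p = 0.00059) and was the only replication gene to change by at least 2-fold. Mcm5, a subunit of that helicase, stood at 9.15, 9.20 and 9.33 in vehicle and 8.51, 8.39 and 8.57 at 32 h and fell by 0.74 ± 0.12 (limma adjusted p = 0.0029). Both genes kept their groups apart. The helicase subunit Mcm2 fell by 0.60 ± 0.12, the initiation factor Mcm10 by 0.74 ± 0.14, the loading factor Cdc6 by 0.57 ± 0.12 and the thymidine kinase Tk1 by 0.78 ± 0.16 (limma adjusted p = 0.012, 0.0082, 0.014 and 0.014). DNA ligase Lig1, the polymerase subunit Pold1 and Uhrf1, which maintains DNA methylation behind the fork, were the remaining members that fell. Members that did not pass included Pcna, the sliding clamp, at -0.02 ± 0.14, and the ribonucleotide reductase subunits Rrm1 and Rrm2 at -0.33 ± 0.13 and -0.36 ± 0.21.

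Mitotic genes had a similar median. Of 32 measured genes of G2 phase and mitosis 8 fell and none rose, a share of 25%, and 29 of 32 changes were negative with a median of -0.36. The spindle checkpoint kinase Bub1b had levels of 8.31, 8.38 and 8.07 in vehicle and 7.54, 7.60 and 7.77 at 32 h and fell by 0.62 ± 0.12 (limma adjusted p = 0.0094), although its other probe changed by only -0.07. Prc1, which bundles the microtubules of the spindle midzone, stood at 10.62, 10.52 and 10.68 and 9.91, 9.96 and 10.15 and fell by 0.60 ± 0.12 (limma adjusted p = 0.0098). In both, the highest 32 h array lay below the lowest vehicle array. Survivin (Birc5), the cytokinesis protein Anln, the centromeric histone Cenpa, topoisomerase Top2a and the kinesins Kif11 and Kif20b changed by -0.59 ± 0.12, -0.63 ± 0.14, -0.56 ± 0.13, -0.68 ± 0.16, -0.57 ± 0.13 and -0.59 ± 0.14. The other Anln probe changed by -0.38 without passing. The mitotic kinase gene Cdk1 (-0.26 ± 0.16), the cyclin gene Ccna2 (0.13 ± 0.14) and Plk1 (-0.33 ± 0.15) did not pass. The calls were sensitive to single arrays: leaving out 1 array at a time left 3 to 7 of the replication genes and 1 to 6 of the mitotic genes lower, and none higher. The smallest counts came without 32 h replicate 3 for replication and without vehicle replicate 2 for mitosis. The list medians over these settings were -0.35 to -0.28 and -0.41 to -0.36. In bulk RNA, fewer cells in a given phase and less of a transcript per cell cannot be told apart.

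**Figure D3:**
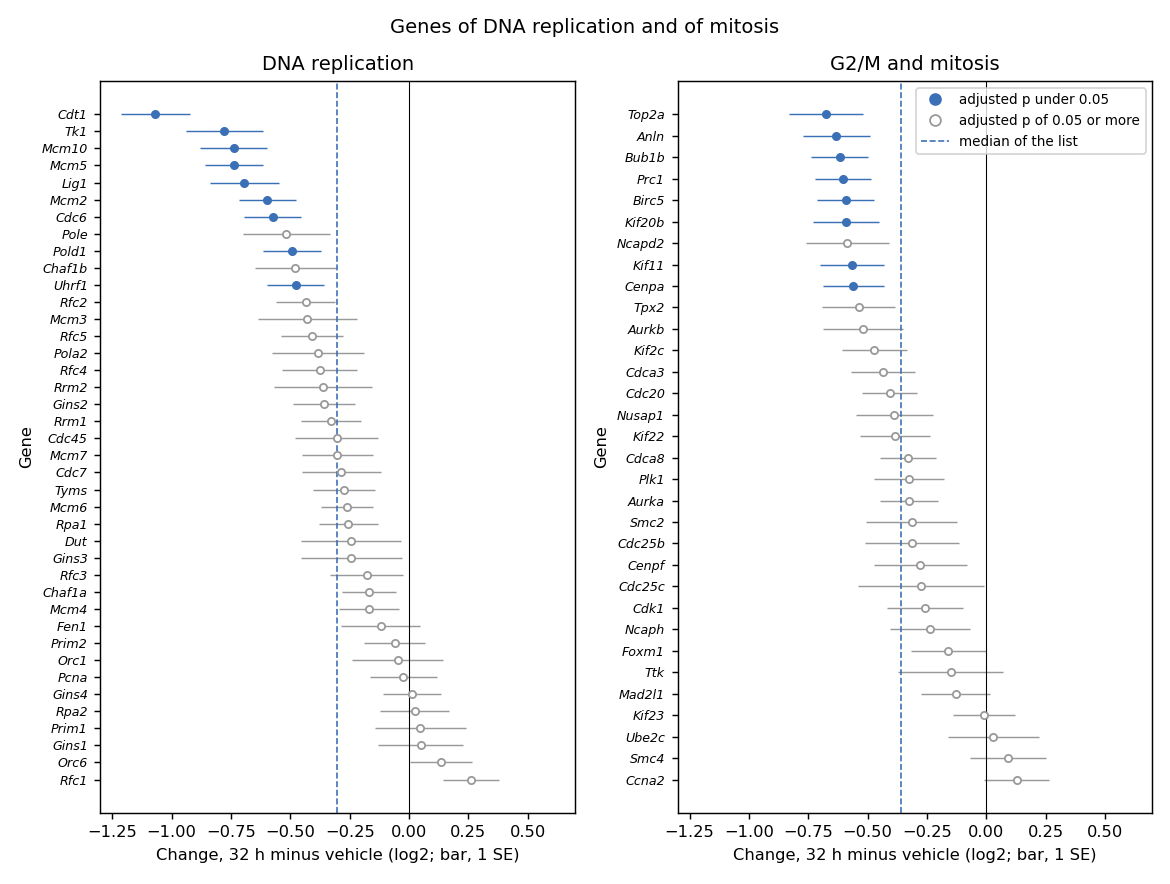
Change from vehicle to imatinib at 32 h (log2, x axis; bars are 1 SE) for each of the 40 measured DNA replication genes (left) and 32 measured mitotic genes (right), ordered by change. Filled blue points passed the test (9 and 8 genes) and open grey points did not; the dashed lines mark the list medians of -0.30 and -0.36, and 34 and 29 genes lie left of 0.

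Promoters of the 2 replication genes and the 2 mitotic genes with the smallest p are shown because these genes moved together and because short sequence motifs are known for each class: binding sites of E2F factors in replication genes, and the CCAAT box and the cell cycle homology region (CHR) in mitotic genes. Each sequence runs 5′ to 3′ from 250 bases before to 50 bases after the annotated start of the gene, from RefSeq on build GRCm38.p6. Cdt1 lies at chr8:122567765-122568064 and Mcm5 at chr8:75109259-75109558, both on the plus strand, and capitals mark matches to the E2F motif TTTNNCGC on either strand.
Cdt1: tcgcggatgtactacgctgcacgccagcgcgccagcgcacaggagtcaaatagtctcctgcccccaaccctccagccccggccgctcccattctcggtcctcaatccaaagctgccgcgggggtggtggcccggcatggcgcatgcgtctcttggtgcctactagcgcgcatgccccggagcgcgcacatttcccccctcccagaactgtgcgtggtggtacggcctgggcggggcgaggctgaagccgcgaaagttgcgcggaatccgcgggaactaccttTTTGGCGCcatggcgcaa
Mcm5: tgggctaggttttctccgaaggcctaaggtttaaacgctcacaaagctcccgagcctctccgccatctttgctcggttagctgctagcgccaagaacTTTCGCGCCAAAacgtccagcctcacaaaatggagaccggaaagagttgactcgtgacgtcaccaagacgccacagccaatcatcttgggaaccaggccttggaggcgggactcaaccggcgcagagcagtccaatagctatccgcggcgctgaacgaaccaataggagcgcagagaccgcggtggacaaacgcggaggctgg
Cdt1 held 1 match just after the start, and Mcm5 held 2 that overlap, 1 on each strand. Bub1b lies at chr2:118597961-118598260 and Prc1, the first of 2 annotated starts, at chr7:80294201-80294500, again on the plus strand; here capitals mark CCAAT and the CHR letters TTTGAA on either strand, so that a box on the minus strand reads ATTGG.
Bub1b: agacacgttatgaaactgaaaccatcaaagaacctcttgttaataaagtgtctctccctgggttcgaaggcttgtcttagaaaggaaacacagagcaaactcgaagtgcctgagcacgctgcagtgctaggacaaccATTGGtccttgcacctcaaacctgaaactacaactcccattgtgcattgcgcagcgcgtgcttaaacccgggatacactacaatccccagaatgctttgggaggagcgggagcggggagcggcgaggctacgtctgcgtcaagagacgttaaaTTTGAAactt
Prc1: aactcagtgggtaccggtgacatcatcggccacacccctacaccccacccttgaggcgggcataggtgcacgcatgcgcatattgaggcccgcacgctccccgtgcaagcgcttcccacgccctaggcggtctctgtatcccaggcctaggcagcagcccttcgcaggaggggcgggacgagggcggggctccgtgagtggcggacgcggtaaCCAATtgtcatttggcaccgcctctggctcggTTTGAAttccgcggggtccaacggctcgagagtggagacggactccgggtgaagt
Each of these 2 held 1 CCAAT box upstream of 1 CHR match. The E2F letters were found in 7 of 12 promoters of the replication genes that fell and in 14 of 39 promoters of all measured replication genes, against 5.17% of all promoters in the table and 8.27% of those of the genes tested. The CHR letters were found in 8 of 9 promoters of the mitotic genes that fell and in 22 of 27 of all measured mitotic genes, against 17.9% of all promoters and 12.1% of those of the genes tested. CCAAT was found in 6 of 9 and 20 of 27 promoters of these mitotic genes, against 37.4% of all promoters and 38.0% of those of the genes tested. In replication genes it was found in 5 of 12 promoters of those that fell and in 22 of 39 of all measured ones, Mcm5 with 3 unmarked boxes among them. Promoters were listed for 33 of 40 replication and 26 of 32 mitotic genes, and a match of letters is a description of the sequence, not of binding.

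Several genes read as outputs of ERK signalling fell, although ERK activity itself was not measured. The list held ERK feedback inhibitors, ETS factors and some other genes, among them Hmga2 and Epha2. Of its 22 measured genes 7 fell and 1 rose, or 31.8% and 4.55% against 2.08% and 2.09% of all genes. Of the changes 19 were negative, and the median was -0.27. With 1 array left out 3 to 6 fell, with 3 without vehicle replicate 1 and 4 without vehicle replicate 2, 32 h replicate 2 or 32 h replicate 3. Among the feedback inhibitors the ERK phosphatase gene Dusp6 had levels of 9.52, 9.36 and 9.15 in vehicle and 8.75, 8.56 and 8.80 at 32 h and fell by 0.64 ± 0.14 (limma adjusted p = 0.016). Its relative Dusp7 fell by 0.67 ± 0.12 and Spred1, which blocks activation of Raf, by 0.65 ± 0.13 (limma adjusted p = 0.0064 and 0.009). The 3 vehicle arrays lay above the 3 arrays at 32 h in each of them. The ETS factor gene Etv1 fell by 0.72 ± 0.15 on its brightest probe, and its 2 other probes fell by 0.80 and 0.65. Etv4 was detected on 3 vehicle arrays and none at 32 h (limma adjusted p = 0.043). The receptor gene Epha2 and the chromatin gene Hmga2, also on this list, fell by 0.64 ± 0.15 and 1.25 ± 0.17. Spry4, another feedback inhibitor, went the other way: it was not detected in vehicle and was at least 1.15-fold higher at 32 h (limma adjusted p = 0.026). No array at 64 h or 96 h detected Spry4, and its changes from vehicle were 0.14 and 0.13 there. It thus passed the detection filter only through the 32 h arrays, where it was high, and its p is not independent of that choice. Ccnd1, a D cyclin, was very abundant at 13.47, 13.46 and 13.43 in vehicle and 12.83, 12.98 and 12.98 at 32 h and fell by 0.52 ± 0.12 (limma adjusted p = 0.022). It was the only one of 19 G1 cyclins and cyclin-dependent kinase inhibitors to pass, or 5.26% lower. Of 15 immediate early genes 1 fell, the zinc finger factor Egr3 by 0.62 ± 0.12 (limma adjusted p = 0.0094; its other probe changed by 0.00), and 1 rose, Klf6 by 0.52 ± 0.12 (limma adjusted p = 0.022; its other probe changed by 0.28). That is 6.67% each way, against 2.08% lower and 2.09% higher of all genes. The calls of Epha2 (5), Etv1 (3), Spry4 (4), Ccnd1 (6) and Klf6 (5) ended without the number of single arrays given in parentheses, of 6, with adjusted p up to 0.104. Spry4 also missed the threshold without background correction (adjusted p = 0.067).

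The direct targets of imatinib were measured in 6 of 9 genes, and none passed the test in either direction. The platelet-derived growth factor receptor genes Pdgfra and Pdgfrb changed by -0.01 ± 0.16 and 0.23 ± 0.20, and Csf1r, the receptor whose ligand the op/op genotype removes, by 0.16 ± 0.20 (limma adjusted p = 0.99, 0.65 and 0.78). Ddr1 had levels of 8.09, 8.29 and 8.38 in vehicle and 8.66, 9.07 and 8.57 at 32 h, a change of 0.51 ± 0.18 (limma adjusted p = 0.15). The groups did not overlap and the other probe changed by -0.38. The change passed with a larger offset or with trended variances (adjusted p = 0.045 and 0.020). Ddr2 changed by -0.14 ± 0.14 and Nqo2 by -0.30 ± 0.12 (limma adjusted p = 0.69 and 0.22). Abl1, Abl2 and Kit did not reach the detection filter. These values are transcript levels and say nothing of kinase activity.

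Factors with which stromal cells act on blood cell progenitors moved in both directions. Of 20 measured niche factors 5 rose and 2 fell, or 25% and 10% against 2.09% and 2.08% of all genes, with a median change of 0.14. With 1 array left out 3 to 4 rose, with 3 without vehicle replicate 3 or 32 h replicate 1. None fell without 32 h replicate 2, and 1 fell without each of the other arrays. Il7, the cytokine that B cell progenitors depend on, had levels of 7.31, 7.38 and 7.14 in vehicle and 8.68, 8.45 and 8.72 at 32 h. It rose by 1.34 ± 0.12, or 2.53-fold (limma adjusted p = 1.8e-05), with every 32 h array more than 1 log2 unit above every vehicle array. Cxcl12, the chemokine that retains progenitors in the marrow, was already among the brightest genes at 12.14, 12.15 and 12.28 and reached 13.21, 13.41 and 13.41, an increase of 1.15 ± 0.11 (limma adjusted p = 3e-05); its 3 other probes rose by 0.87, 0.59 and 1.31. The groups did not overlap in either gene. The Notch ligand gene Jag1 rose by 0.77 ± 0.15, angiopoietin Angpt1 by 0.58 ± 0.13 and the morphogen gene Bmp4 by 0.55 ± 0.12 (limma adjusted p = 0.0084, 0.019 and 0.021). Ptn, the growth factor pleiotrophin, fell from 6.01, 6.32 and 6.08 to 5.34, 4.93 and 5.14, by 1.00 ± 0.20, and the cytokine gene Tslp by 0.78 ± 0.18 (limma adjusted p = 0.0098 and 0.026). Kitl, which encodes stem cell factor, had levels of 5.66, 5.37 and 5.50 and 5.98, 5.73 and 5.62, and the adhesion molecule gene Vcam1 8.79, 8.94 and 8.62 and 8.83, 8.70 and 9.11. Their changes of 0.27 ± 0.18 and 0.10 ± 0.15 did not pass (limma adjusted p = 0.51 and 0.81) and their groups overlapped. Of 12 Notch pathway genes Jag1 and the Notch target Hey1 (0.82 ± 0.16, limma adjusted p = 0.011) rose, or 16.7% against 2.09% of all genes. The target Hes1 changed by 0.24 ± 0.22 (limma adjusted p = 0.65). Among these, the calls of Angpt1 (5), Bmp4 (4), Ptn (2), Tslp (5) and Hey1 (3) ended without that many of the 6 arrays, left out singly, with adjusted p up to 0.121.

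In 3 growth factor and morphogen lists the genes that passed the test all rose. The list of FGF, VEGF, PDGF and HGF ligands and receptors, which also holds the angiopoietin Angpt1, had 23 measured genes. Of these 4 rose and none fell, a share of 17.4% against 2.09% of all genes higher. The median change was 0.25, the highest of the pathway lists. With 1 array left out 2 to 4 genes of this list rose, the lowest count being without vehicle replicate 2, vehicle replicate 3 or 32 h replicate 1. Fgf10, a ligand made by mesenchyme, had levels of 6.39, 6.36 and 6.41 in vehicle and 7.65, 7.74 and 7.58 at 32 h, and Fgfr2, a receptor with a splice form that binds it, had 7.52, 7.85 and 7.79 in vehicle and 8.93 or more on each array at 32 h. They rose by 1.27 ± 0.11 and 1.25 ± 0.12 (limma adjusted p = 1.2e-05 and 3.4e-05). The 2 other Fgf10 probes changed by 1.52 and 0.18, and 1 of them passed. The 2 other Fgfr2 probes changed by 0.24 and 0.39 without passing. Vegfc, the lymphatic growth factor, was detected on 1 of 3 vehicle arrays and on all 3 at 32 h and rose by 0.66 ± 0.13 (limma adjusted p = 0.011). The remaining gene of this list that rose was Angpt1, already counted above among the niche factors and not a member of the families named. Of 22 Wnt pathway genes 3 rose, or 13.6%, with 11 positive and 11 negative changes. They were the Wnt enhancer Rspo2 from 7.66, 7.15 and 7.39 to 8.75, 8.43 and 8.36, by 1.12 ± 0.18, the secreted Wnt-binding protein gene Sfrp1 by 0.63 ± 0.14 (its other probe by 0.17) and the receptor gene Fzd5 by 0.57 ± 0.14 (limma adjusted p = 0.0026, 0.021 and 0.042). Of 29 TGF-beta and BMP pathway genes the ligands Tgfb2 (0.75 ± 0.17) and Bmp4 and the BMP target Id4 (0.54 ± 0.14) rose, or 10.3%. Without vehicle replicate 1 or 32 h replicate 1 none of that list passed, and 1 rose without each of the other arrays. The Wnt list gave 2 higher and 1 lower without vehicle replicate 1, and 1 higher without vehicle replicate 3, 32 h replicate 1 or 32 h replicate 3. Runx1, the only one of 24 craniofacial and mesenchyme transcription factors to pass (4.17%), rose by 0.63 ± 0.14 (limma adjusted p = 0.024). Except for Fgf10, Fgfr2 and Rspo2 these calls were close to the threshold: those of Vegfc (3), Angpt1 (5), Sfrp1 (4), Fzd5 (5), Tgfb2 (5), Bmp4 (4) and Id4 (5) ended without that many single arrays, with adjusted p up to 0.16, and that of Runx1 without vehicle replicate 1, 32 h replicate 2 or 32 h replicate 3 (adjusted p up to 0.103).

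A few genes of fat cells and of cholesterol synthesis rose. Of 28 measured adipocyte genes 5 rose and none fell, a share of 17.9% against 2.09% of all genes, with 16 positive and 12 negative changes and a median of 0.16. Beside Adipoq, the lipoprotein lipase gene Lpl rose from 12.09, 11.88 and 12.05 to 12.58, 12.89 and 12.77, by 0.74 ± 0.12 (limma adjusted p = 0.0028). The fatty acid carriers Cd36 and Fabp5 were undetected on all vehicle arrays and detected on all 3 at 32 h, Cd36 at least 1.44-fold higher, and Dgat1, which makes triglyceride, rose by 0.68 ± 0.14 (limma adjusted p = 0.0083, 0.042 and 0.016 for Cd36, Fabp5 and Dgat1). Of 22 cholesterol genes 4 rose, or 18.2%: the synthesis enzymes Sqle (0.62 ± 0.13; its other probe 0.03) and Hsd17b7 (0.50 ± 0.11), the feedback regulator Insig1 (0.58 ± 0.14; its 2 other probes 0.02 and -0.02) and the sterol carrier Stard4 (0.55 ± 0.14), and Insig2, a second regulator of the same kind, fell by 0.63 ± 0.13. The other Insig2 probe changed by -0.22 without passing. Over the mean of their probes Sqle and Insig1 changed by 0.33 and 0.20 and did not pass (limma adjusted p = 0.17 and 0.28). The calls of Dgat1 (3), Sqle (1), Hsd17b7 (6), Insig1 (5), Stard4 (5) and Insig2 (3) ended without that many of the single arrays (adjusted p up to 0.171), and without vehicle replicate 2 none of the cholesterol genes passed. Adipocyte counts ran from 3 to 4 genes higher over the arrays left out, with 3 without vehicle replicate 2, vehicle replicate 3 or 32 h replicate 1.

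Matrix genes changed in both directions. Of 43 matrix glycoproteins and proteoglycans 5 rose and 6 fell, and of 29 collagen genes 2 rose and 3 fell, with list medians of 0.06 and 0.03. Matrix genes were higher in 11.6% and collagen genes lower in 10.3%, against 2.09% and 2.08% of all genes. With 1 array left out 3 to 4 matrix genes rose and 3 to 4 fell, and 1 collagen gene fell without each array except 32 h replicate 3. Ogn, a small leucine-rich proteoglycan, was abundant at 11.73, 11.92 and 12.11 in vehicle and 13.05, 13.25 and 13.44 at 32 h and rose by 1.33 ± 0.14 (limma adjusted p = 5e-05), and its 2 other probes rose by 1.63 and 1.34. Both genes of the collagen list that rose encode enzymes of cross-linking: the lysyl hydroxylase Plod2 went from 8.16, 7.94 and 8.37 to 9.40, 9.48 and 9.44, by 1.28 ± 0.12, and lysyl oxidase (Lox) rose by 0.73 ± 0.13 (limma adjusted p = 3e-05 and 0.004). Nidogen Nid2, which links basement membrane proteins, rose by 0.85 ± 0.11, and Smoc1, Thbs2 and Mfap5 by 0.64 ± 0.12, 0.50 ± 0.11 and 0.59 ± 0.14. The other Smoc1 probe changed by 0.00, and the mean over its probes did not pass (0.32, limma adjusted p = 0.22). Fibronectin (Fn1) fell from 13.29, 13.05 and 13.07 to 12.51, 12.42 and 12.35, by 0.71 ± 0.12 (limma adjusted p = 0.0028). Ltbp1, which stores latent TGF-beta in the matrix, stood at 10.22, 10.24 and 10.44 in vehicle and at 8.92 to 9.75 at 32 h and fell by 1.08 ± 0.18 (limma adjusted p = 0.0032); its 3 other probes changed by -0.67, -0.27 and 0.06. Sparcl1, Fbln2, Ecm1 and Ltbp3 changed by -0.87 ± 0.16, -0.54 ± 0.12, -0.56 ± 0.13 and -0.54 ± 0.14. The 2 other Fbln2 probes changed by -0.25 and -0.62 without passing. The collagens that fell were Col18a1 (-0.71 ± 0.14; its other probe -0.02), Col7a1 (-0.71 ± 0.16) and Col16a1 (-0.47 ± 0.11), while the main fibrillar chain genes Col1a1 and Col1a2 changed by 0.05 ± 0.15 and 0.03 ± 0.11 without passing. The calls of Col7a1 (6), Col16a1 (5), Thbs2 (4) and Fbln2 (4) ended without that many single arrays, with adjusted p up to 0.12.

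Both metalloproteinase inhibitors that passed the test fell. Timp3, an inhibitor of metalloproteinases that stays bound to the matrix, had levels of 12.73, 12.41 and 12.41 in vehicle and 11.42, 11.43 and 11.10 at 32 h, and the soluble inhibitor Timp1 13.05, 13.26 and 13.15 and 12.39, 12.40 and 12.18. They fell by 1.20 ± 0.13 and 0.83 ± 0.12 (limma adjusted p = 0.0001 and 0.00065), the groups were apart, and the other probe of each fell too, by 1.86 and 0.86. The kallikrein gene Klk8 fell by 0.76 ± 0.13 and the protease gene Adamts1 rose by 1.03 ± 0.16 (limma adjusted p = 0.0033 and 0.0021). The other Adamts1 probe changed by 0.45 without passing. No other of the 32 measured proteases and inhibitors passed, so that 3.1% were higher and 9.4% lower, against 2.09% and 2.08% of all genes. Adamts9 is not on that list. Of 27 adhesion genes 3 rose and 3 fell, 11.1% each way against 2.09% and 2.08% of all genes. With 1 array left out 1 to 2 rose and 1 to 3 fell. The collagen-binding integrin Itga1 rose from 4.92, 5.38 and 5.09 to 6.21, 6.28 and 6.01, by 1.04 ± 0.16, on 1 of 2 probes (the other changed by 0.09), and the laminin-binding Itga3 fell from 5.80, 5.76 and 6.36 to 4.89, 5.08 and 5.05, by 0.97 ± 0.18 (limma adjusted p = 0.002 and 0.0061). The adhesion receptor gene Alcam and the focal adhesion gene Vcl rose by 0.59 ± 0.14 and 0.56 ± 0.13, and the hyaluronan receptor gene Cd44 and the tetraspanin gene Cd9 fell by 0.53 ± 0.11 and 0.51 ± 0.12. Vimentin (Vim), the filament protein of mesenchymal cells, fell by 0.60 ± 0.12 from a very high level (limma adjusted p = 0.012). Among the adhesion genes and Vim, the calls of Vcl (5), Alcam (5), Cd44 (2), Cd9 (4) and Vim (2) ended without that many single arrays (adjusted p up to 0.107).

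Several contractile genes of the smooth muscle type rose. Of 31 measured genes of the contractile apparatus 5 rose and 1 fell, or 16.1% and 3.23% against 2.09% and 2.08% of all genes. Of the changes 20 were positive and 11 negative, with a median of 0.17. The actin-binding protein gene Tagln had levels of 7.02, 6.93 and 6.94 in vehicle and 7.82, 8.18 and 7.78 at 32 h, smooth muscle actin Actg2 10.22, 10.20 and 10.11 and 11.23, 11.26 and 10.92, and the myosin light chain gene Myl9 10.86, 10.73 and 10.75 and 11.63, 11.74 and 11.45. They rose by 0.97 ± 0.13, 0.96 ± 0.13 and 0.83 ± 0.13 (limma adjusted p = 0.00053, 0.00067 and 0.0021), each with groups apart. The others that rose were Vcl, given above, and tropomyosin Tpm1, by 0.67 ± 0.11 (limma adjusted p = 0.0035). The actin cross-linker Actn4 fell by 0.63 ± 0.15 (limma adjusted p = 0.029; lost without 5 of the 6 single arrays, up to 0.129). Of the skeletal muscle markers 3 of 11 were measured and 2 rose. Skeletal actin Acta1, detected on only 1 of 3 vehicle arrays, went from 4.75, 5.13 and 4.77 to 6.46, 6.08 and 5.92. Myl1, which was undetected in vehicle, rose by at least 1.14-fold. The calls of both were lost without some arrays (Acta1 3 and Myl1 5 of the 6; adjusted p up to 0.057 and 0.111). The summed intensity of the 3 muscle markers was 205 to 271 on the vehicle arrays and 276 to 284 at 32 h, and the third marker, Des, changed by -0.08 ± 0.14. Their part in the change of the contractile genes was not tested.

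Among skeletal genes 1 of 14 osteoblast and 3 of 9 measured cartilage genes passed. For osteoblast genes this was 7.14% higher, and for cartilage genes 11.1% higher and 22.2% lower, against 2.09% and 2.08% of all genes. The proteoglycan gene Omd, a neighbour of Ogn in function, was the osteoblast gene that passed, rising from 5.78, 5.73 and 5.87 to 6.86, 7.29 and 6.71, by 1.16 ± 0.16 (limma adjusted p = 0.00053). Among the cartilage genes Sox5, a chondrocyte transcription factor, fell from 10.46, 10.64 and 10.66 to 9.67, 9.65 and 9.67, by 0.92 ± 0.12, while its 5 other probes changed by -1.03 to -0.64 and 4 of them passed, and the collagen gene Col2a1 fell from 12.05, 11.95 and 12.04 to 11.35, 11.16 and 11.21, by 0.77 ± 0.11 (limma adjusted p = 0.00033 and 0.00085). Both had tight, separate groups, and the 2 other Col2a1 probes fell by 0.84 and 0.67. The matrix protein gene Comp rose by 0.80 ± 0.13 (limma adjusted p = 0.0026), while its other probe changed by 0.40 without passing. In the fetal growth list Mest rose and Hmga2 fell, or 5.88% each way. Of the guidance genes that follow 3.85% were higher and 11.5% lower. In the list of 26 guidance genes the ephrin Efna5 rose by 0.68 ± 0.10 (its other probe by 0.19, and the mean over probes did not pass at 0.43, limma adjusted p = 0.087) while the semaphorin receptor Plxna2 fell from 9.78, 9.82 and 9.82 to 8.78, 8.83 and 8.82, by 1.00 ± 0.10, beside falls of Epha2 and of Sema4b by 0.55 ± 0.13 (limma adjusted p = 0.0015, 5.7e-05 and 0.024 for Efna5, Plxna2 and Sema4b; Sema4b was lost without 5 of the 6 single arrays, up to 0.099).

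Stress and inflammation lists held changes in both directions. Of 41 targets of the oxidant sensor NRF2 and redox enzymes 4 fell and 2 rose, or 9.76% and 4.88% against 2.08% and 2.09% of all genes. Nqo1, a quinone reductase, went from 8.11, 7.90 and 8.08 to 6.96, 7.12 and 6.91, by -1.03 ± 0.13, and Srxn1, Gsta1 and Osgin1 fell, Gsta1 from detection on all vehicle arrays to none, at least 1.27-fold (limma adjusted p = 0.00023, 0.0037, 0.0053 and 0.015 in that order). The glutathione enzymes Gstt1 and Gpx3 rose by 0.55 ± 0.14 and 0.47 ± 0.12. The aldehyde dehydrogenase gene Aldh1a7 was the only one of 14 retinoid and aldehyde genes to pass (7.14% higher), up by 1.16 ± 0.13 (limma adjusted p = 0.00012). Among 19 heat shock genes Hspa1b rose by 1.01 ± 0.14 and the small heat shock protein gene Cryab by 0.81 ± 0.21, while the co-chaperone gene Bag3 fell by 0.47 ± 0.11 (limma adjusted p = 0.00071, 0.042 and 0.032). Of the heat shock genes 10.5% were higher and 5.26% lower. Hspa1b has a near-identical copy, and the 2 were not separated here. Of 27 inflammatory genes 4 fell and none rose, a share of 14.8% against 2.08% of all genes, and 2 fell without vehicle replicate 1, vehicle replicate 2 or 32 h replicate 3. The chemokines Cx3cl1 and Ccl2 changed by -0.78 ± 0.15 and -0.88 ± 0.20, Tnfaip2 by -0.75 ± 0.13 (its 2 other probes by -0.49 and 0.11) and the NF-kB regulator Nfkbiz by -0.73 ± 0.18 (limma adjusted p = 0.0083, 0.022, 0.0048 and 0.031). Single passes were Phgdh, the first enzyme of serine synthesis, in the ATF4 list at -0.85 ± 0.20, Gadd45a in the p53 list at 0.61 ± 0.14 and Sort1 in the lysosome list. They make 2.86% of 35 ATF4 genes lower, 4.55% of 22 p53 genes higher and 2.04% of 49 lysosome genes higher. The ATF4 and lysosome shares are near those of all genes, 2.08% lower and 2.09% higher. The calls of Gstt1 (6), Gpx3 (5), Osgin1 (2), Phgdh (4), Bag3 (6), Cryab (4), Gadd45a (5), Ccl2 (3) and Nfkbiz (5) ended without that many single arrays, with adjusted p up to 0.17.

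No member passed in either direction in 7 lists at this number of arrays: 23 ER chaperone and unfolded protein response genes, 27 glycolysis and hypoxia genes, 29 interferon and antigen presentation genes, 36 ribosome biogenesis and Myc-linked genes, 48 cytosolic ribosomal proteins, 66 oxidative phosphorylation subunits and 34 proteasome genes. Their medians lay between -0.12 for ribosome biogenesis and 0.03 for the proteasome. In simulated data with the spread of these arrays the same test recovered 38% of probes changed 1.5-fold and 98% of those changed 2-fold, so a change of 1.5-fold or less could be missed in any single gene. Most markers of other cell types were below the filter. Of 16 myeloid markers 6 were measured, Lyz1 rising by 0.58 ± 0.14 (limma adjusted p = 0.032; lost without 5 of the 6 single arrays, up to 0.149) and Trem2 falling by 0.86 ± 0.12 (limma adjusted p = 0.00063), and their summed intensity was 889 to 1028 in vehicle and 727 to 794 at 32 h. Lyz1 and Lyz2 are near-identical copies, and Lyz2 changed by 0.43 ± 0.15. No B lymphoid, T and NK, endothelial, epithelial, erythroid or neural marker passed.

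**Figure D4:**
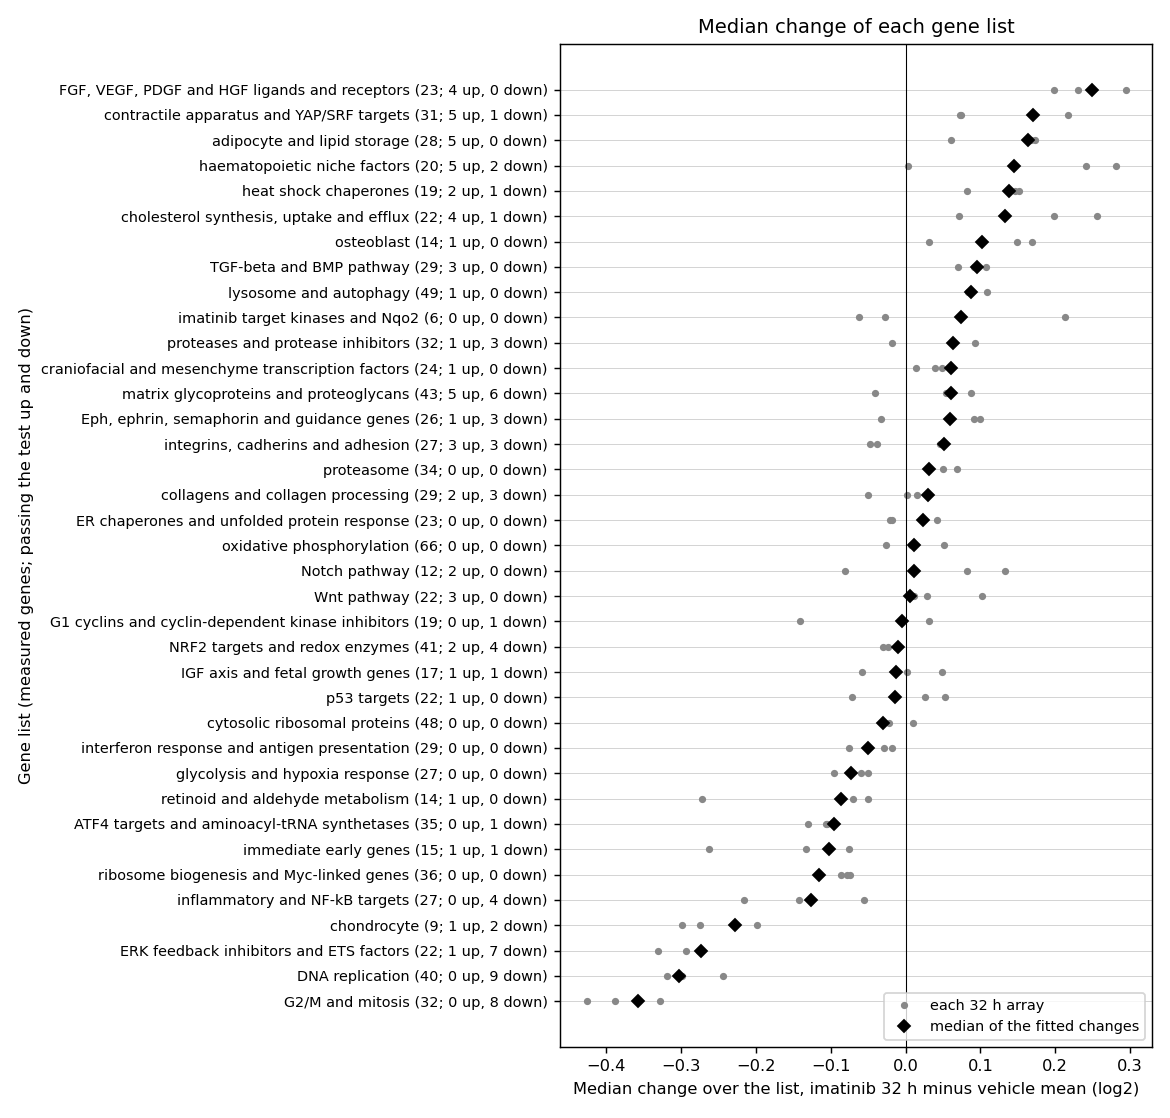
Median change of each pathway list from vehicle to imatinib at 32 h (log2, x axis): diamonds are the median of the fitted changes and grey points the list median on each of the 3 arrays at 32 h against the vehicle mean. Labels give the genes measured and those higher and lower; mitosis, DNA replication and ERK feedback lie lowest, at -0.36, -0.30 and -0.27, growth factors highest at 0.25, and the proliferins (-1.94) are left off the axis.

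Values at the later times are set beside the 32 h changes; the contrasts of 32, 64 and 96 h with vehicle share the same 3 vehicle arrays, and the contrast of 64 h with 32 h shares the 32 h arrays. Between 32 and 64 h, both on array label 2, 67 genes were higher, or 0.656%, and 59 lower, or 0.578%. Il7 changed from vehicle by 1.34 at 32 h, 1.95 at 64 h and 2.39 at 96 h, Cxcl12 by 1.15, 2.01 and 2.18, and Adipoq by 1.74, 2.77 and 3.04. Il7, Cxcl12 and Adipoq were each higher at 64 h than at 32 h (limma adjusted p = 0.022, 0.0014 and 0.00024). Prl2c2 continued downward, from -1.99 at 32 h to -2.95 and -4.65. Other genes were close to their 64 h level at 32 h: Ogn differed by 0.05 ± 0.14 between 32 and 64 h, Omd by -0.02 ± 0.16, Slc1a3 by -0.10 ± 0.13, Tagln by -0.08 ± 0.13 and Comp by -0.17 ± 0.13, none of which passed (limma adjusted p = 0.92, 0.98, 0.82, 0.86 and 0.68). A p over the threshold does not show that the levels were the same. Replication genes had a median of -0.30 at 32 h, -0.30 at 64 h and -0.04 at 96 h, and mitotic genes -0.36, -0.30 and -0.05. No member of either list passed between 32 and 64 h. The 96 h arrays carry array label 1, as the vehicle arrays do, whereas the 32 h and 64 h arrays carry label 2. Between 32 h and 96 h, time and array label therefore cannot be told apart. Egr3 turned back: its levels of 6.87, 6.98 and 7.08 at 32 h were followed by 7.58, 7.71 and 7.61 at 64 h, a rise of 0.65 ± 0.12 (limma adjusted p = 0.015) to the range of the vehicle arrays at 7.57, 7.55 and 7.67. This rise missed the threshold without 4 of the 6 arrays of 32 and 64 h (32 h replicates 1 and 2, 64 h replicates 2 and 3; adjusted p up to 0.082). It also missed it with only the 6 arrays of 32 and 64 h fitted (0.66, adjusted p = 0.056). Over the mean of its 2 probes it was 0.20 (adjusted p = 0.50), so the return rests on 1 of 2 probes. No other named gene that had passed at 32 h passed in the opposite direction between 32 and 64 h.

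**Figure D5:**
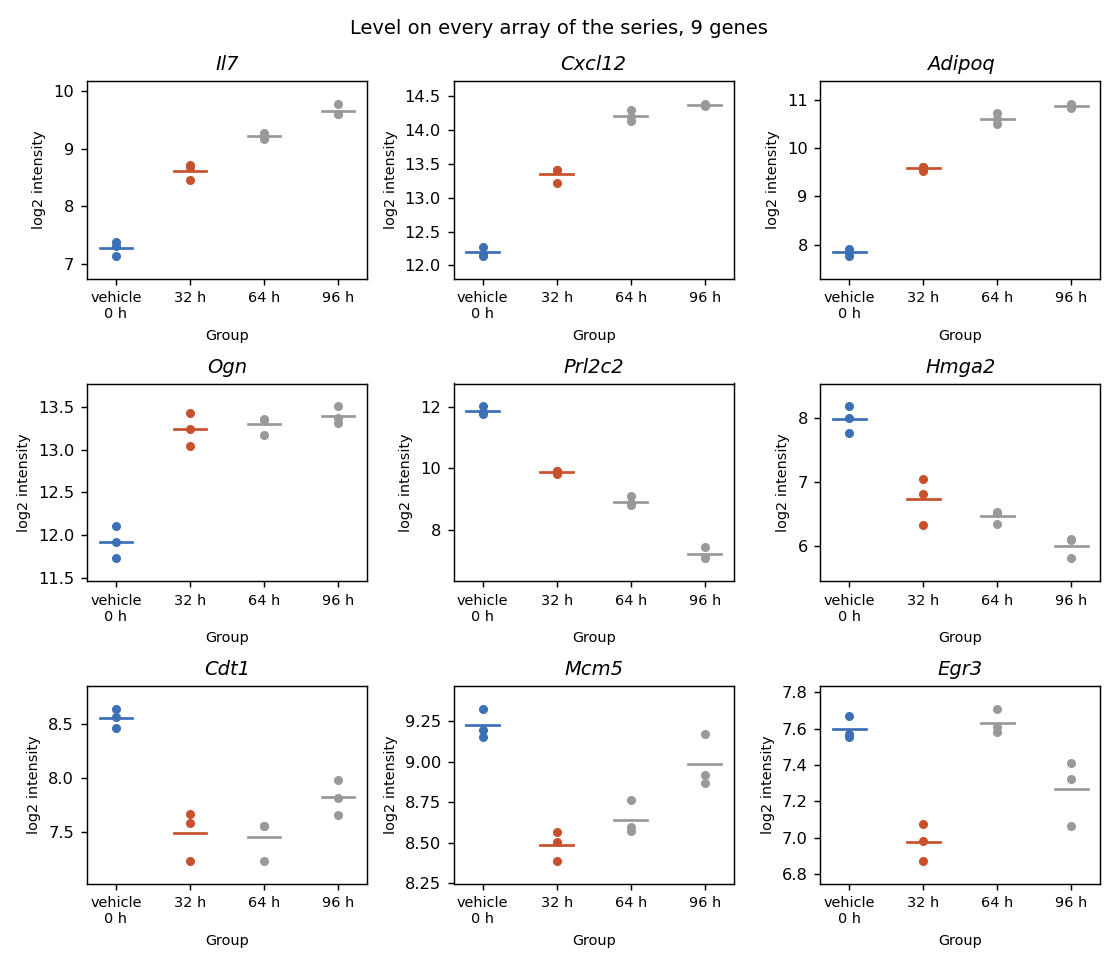
Level (log2 intensity, y axis) on each of the 12 arrays for 9 genes, by group (x axis); points are arrays and bars group means, with vehicle in blue, imatinib 32 h in red and the later times in grey. Il7, Cxcl12 and Adipoq are higher at 64 h than at 32 h, Ogn lies at similar levels from 32 h on, Prl2c2 and Hmga2 are lower at each later time, Cdt1 and Mcm5 lie nearer to vehicle at 96 h than at 32 h, and Egr3 is low at 32 h and back in the vehicle range at 64 h. Vehicle and 96 h share array label 1, and 32 h and 64 h share label 2.

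Many calls depended on single arrays. With 1 array left out, 123 to 145 genes were higher and 124 to 139 lower, 56.2% to 62.6% of the 425 called genes still passed, and no called gene changed direction. Among the named genes, Bub1b and Sqle missed the threshold without vehicle replicate 2 alone. Those that missed it without either of 2 arrays, named here by group and replicate, were Cd44 (vehicle 1 or 32 h 1), Mcm2 and Osgin1 (vehicle 2 or 32 h 3), Ptn (vehicle 2 or 32 h 2) and Vim (vehicle 1 or 32 h 2). Those that missed it without any of 3 were Acta1 and Hey1 (vehicle 1, vehicle 3 or 32 h 1), Birc5 (vehicle 1, vehicle 2 or 32 h 2), Ccl2 and Etv1 (vehicle 1, vehicle 2 or 32 h 3), Dgat1 and Vegfc (vehicle 2, vehicle 3 or 32 h 1), Insig2 (vehicle 2, 32 h 1 or 32 h 2) and Runx1 (vehicle 1, 32 h 2 or 32 h 3). Those that, over the 6 settings with 1 array left out, passed only without 1 of the 2 arrays named were Anln and Cryab (vehicle 1 or 32 h 3), Bmp4 and Cd9 (vehicle 2 or 32 h 2), Fbln2 (vehicle 3 or 32 h 3), Phgdh (32 h 1 or 32 h 2), Sfrp1 (vehicle 1 or vehicle 2) and Spry4 and Thbs2 (vehicle 2 or 32 h 1). Those that passed there only without the array named were Actn4, Epha2, Id4 and Lyz1 (vehicle 3), Alcam, Gadd45a and Gpx3 (vehicle 1), Angpt1, Col16a1, Sema4b and Tgfb2 (32 h 3), Fzd5, Klf6 and Nfkbiz (32 h 2), Insig1, Myl1, Stard4 and Vcl (32 h 1) and Tslp (vehicle 2). The calls of Bag3, Ccnd1, Col7a1, Gstt1 and Hsd17b7 ended whichever array was left out, and adjusted p reached 0.171 over all of these. Calls that held without any 1 of the 6 arrays included those of Slc24a3, Adipoq, Rgcc, Il7, Cxcl12, the 4 proliferins, Prkg2, Aqp1, Timp3, Timp1, Ogn, Cdt1 and Mcm5. Normalising the 2 array labels separately ended the calls of Stard4, Thbs2, Fzd5, Id4, Gstt1, Gpx3 and Cryab. Genes given to complete a list, such as Cdc6, Tk1, Lig1, Dusp6, Top2a and Kif11, and genes given although they did not pass, such as Pcna, Rrm1, Rrm2, Cdk1, Ccna2, Plk1, Col1a1, Col1a2, Des and Lyz2, were chosen after their values were seen. The calls of the former were not followed singly over the arrays left out. In a principal component analysis of the 12 arrays, the second component was positive on every array of label 1, vehicle and 96 h, at 5.17 to 17.2. It was negative on every array of label 2, 32 h and 64 h, at -17.2 to -5.32. On the third component 32 h replicate 3 stood apart from the other 2 arrays at 32 h (-20.4 against -3.66 and -5.52).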

How the data were processed

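RNA of OP9 cells was hybridised to Illumina mouse BeadChips, 1 array per sample, after biotin labelling, per the labels. The authors deposited probe signal intensities, not normalised and without background subtraction, each with a detection p-value, and a table of normalised intensities; per the submitters' processing notes limma was used (version and steps not given in the sources used here). From the deposited intensities, log2 levels were computed here with limma 3.58.1 in R 4.3.3 (neqc: background correction from detection p-values, offset 16, quantile normalisation over 12 arrays), and these differed from the log2 of the deposited normalised values by at most 0.0193. Of 45281 probes, 18897 with detection p under 0.05 on at least 3 arrays were kept; 34885 probes had 1 gene symbol in the platform annotation, 18 several and 10378 none. For a gene with several kept probes the brightest on average stood for it.

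Group means were fitted over all 12 arrays, which share 1 estimate of the spread (lmFit, eBayes), with Benjamini-Hochberg adjustment over probes. Where no array of a group gave a detected signal, the fold was computed against the higher of the lowest detected signal and the probe's own signal, and given as "at least". Named were the 20 largest increases and decreases among called genes whose arrays did not overlap (unnamed transcripts left out), all called members of lists with at most 4 and otherwise the 4 rising and 4 falling of lowest p; measured targets of imatinib and the genes Hes1, Vcam1, Kitl, Cxcl12 and Il7 were named whatever their call. The result of 1 gene that this rule names is not reported here. The lists, and the genes to be named, were chosen with earlier results of these data known; 112 of 1457 listed genes were not analysed here. The procedure was tested on simulated data with 50 probes changed per fold size among 18897, and made 12 false calls. Alternatives covered background, scaling, filter, offset, variance model, array weights, replicate block and each array left out. Precision is limited by the number of arrays.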

Additional observations from a re-analysis of the deposited data

Results flagged for a closer look

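The named genes below were called at 32 h and also differed between imatinib 64 h and 32 h by limma (adjusted p under 0.05), which tests the difference between the 2 exposure times directly; the 32 h arrays enter both contrasts. The value after each gene is its log2 change from 32 h to 64 h. Among genes higher at 64 h than at 32 h the changes were Hey1 1.32, Vegfc 1.22, Fgf10 1.16, Rspo2 1.15, Itga1 1.09, Adipoq 1.03, Sort1 1.02, Adamts9 0.96, Fgfr2 0.93, Rgcc 0.92, Runx1 0.88, Cxcl12 0.86, Npr3 0.84, Lyz1 0.80, Palmd 0.79, Nid2 0.77, Hp 0.74, Fzd5 0.70, Lpl 0.67, Aoc3 0.67, Efna5 0.66, Slc24a3 0.66, Egr3 0.65, Aldh1a7 0.62, Il7 0.61 and Mest 0.54. Egr3 differs from the rest of these in direction, having fallen at 32 h. Among genes lower at 64 h than at 32 h they were Klk8 -1.42, Timp3 -1.33, Aqp1 -1.22, Col18a1 -1.17, Prl2c3 -1.12, Trem2 -1.06, Tmem184a -1.01, Prl2c2 -0.96, Ltbp1 -0.92, Prl2c4 -0.92, Anxa8 -0.92, Prkg2 -0.84, Col7a1 -0.80, Tafa5 -0.79, Zic4 -0.76, Timp1 -0.73 and Fbln2 -0.67. Klk8 was detected on all 3 arrays at 32 h but on only 1 of 3 at 64 h, so its value rests on signals near background. With 1 of the 6 arrays of 32 and 64 h left out, the call between the 2 times ended at least once for Aldh1a7, Aoc3, Col7a1, Egr3, Fbln2, Fzd5, Il7, Lpl, Ltbp1, Lyz1, Mest, Palmd, Prkg2, Slc24a3, Tafa5 and Zic4. Over the mean of a gene's probes the change from 32 h to 64 h did not pass for Palmd (0.49), Mest (0.34), Fgfr2 (0.33), Npr3 (0.40), Tmem184a (-0.36), Ltbp1 (-0.27), Egr3 (0.20), Fzd5 (0.54) and Efna5 (0.47).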

How the results depend on the processing

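Against 213 genes higher and 212 lower at 32 h, the counts were 344 and 362 without background correction, 324 and 342 with an offset of 50, 342 and 326 with trended and robust variances, and 16 and 12 when a change of more than 1.5-fold was tested for, since that test asks for more; for the others the cause was not tested. Leaving out 1 array at a time gave 123 to 145 higher and 124 to 139 lower with fewer arrays. Median scaling, the filters, array weights, the 6 arrays alone, the deposited normalised values, separate array labels and the mean over a gene's probes each stayed within 1.5 times of both counts (of the 425 called genes, the 6 arrays alone kept 67.1% and the mean over probes 86.1%), and no called gene changed direction in any of these settings. Same-numbered arrays did not deviate together (r = 0.0043, -0.0094 and 0.026), so the numbers were not treated as pairs; with the replicate number as a block 193 genes were higher and 195 lower, and Fzd5, Id4, Gpx3 and Nfkbiz did not pass. Among named genes the mean over probes ended the calls of Egr3, Klf6, Bub1b, Sqle, Insig1, Col18a1, Smoc1, Sfrp1, Tnfaip2 and Efna5, no background correction those of Tslp, Spry4, Vegfc, Gpx3, Gsta1 and Myl1, an offset of 50 those of Spry4, Gpx3 and Myl1, the 6 arrays alone those of Hey1, Etv1, Klf6, Anln, Hsd17b7, Stard4, Col16a1, Thbs2, Fbln2, Alcam, Cd44, Cd9, Actn4, Sfrp1, Fzd5, Bmp4, Id4, Gstt1, Gpx3, Phgdh, Bag3, Cryab, Runx1 and Lyz1, and no filter those of Tslp, Stard4, Fzd5, Phgdh, Cryab, Ccl2 and Nfkbiz. Changes that crossed 0 had not passed. For 32 h against vehicle they ranged, over the arrays left out, for Pdgfra -0.146 to 0.141 and Vcam1 -0.0168 to 0.187. For 64 h against 32 h the ranges were Ogn -0.0442 to 0.149, Cdt1 -0.176 to 0.0634, Anln -0.109 to 0.137, Pdgfra -0.0606 to 0.227, Kitl -0.244 to 0.126, Hes1 -0.098 to 0.225, Insig1 -0.17 to 0.0857, Omd -0.139 to 0.149, Vcl -0.173 to 0.0548, Tagln -0.154 to 0.044, Nfkbiz -0.233 to 0.109, Pdgfrb -0.26 to 0.118, Ddr2 -0.104 to 0.0818, Birc5 -0.117 to 0.00713, Thbs2 -0.088 to 0.00221, Srxn1 -0.0121 to 0.0675, Osgin1 -0.0628 to 0.131, Vcam1 -0.224 to 0.000432, Acta1 -0.525 to 0.185 and Tslp -0.300 to 0.0311. In the same contrast, median scaling gave Ogn -0.0477, Lox -0.018 and Ddr2 -0.000926, array weights Ddr2 -0.0123, and the mean over probes Klf6 -0.00479, Anln -0.0584, Srxn1 -0.118 and Vcam1 0.141. With 3 arrays a group, changes of 1.5-fold were recovered in 38% of simulated probes, and signals near background set only bounds.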

Other observations

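Further genes of cell division that were on no list, and were picked out after their values were seen, were lower at 32 h. Timeless, which stabilises replication forks, changed by -0.79 ± 0.14 (limma adjusted p = 0.0038), and Esco2, which establishes sister chromatid cohesion, by -0.92 ± 0.16 (limma adjusted p = 0.0039). The centromere proteins Cenph, Cenpn and Hjurp changed by -0.69 ± 0.12, -0.72 ± 0.16 and -0.67 ± 0.14, the centriole kinase Plk4 by -0.56 ± 0.14 and the chromosome kinesin Kif4 by -0.69 ± 0.16. The histone genes H2ac22, H2ac7, H2ac15 and H2ac11 changed by -0.67 ± 0.12, -0.60 ± 0.11, -0.66 ± 0.15 and -0.57 ± 0.14; histone genes are near-identical copies, and their probes were not separated.

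Other called genes, also picked after their values were seen, included genes of the cell cortex, mineral and metabolism. Mgp, a matrix protein that inhibits calcification, had levels of 12.94, 12.90 and 12.84 in vehicle and 11.88, 11.85 and 11.81 at 32 h, a change of -1.05 ± 0.12 (limma adjusted p = 0.00018). The actin regulators Msn, Gsn and Capg changed by -0.75 ± 0.13, -0.65 ± 0.14 and -0.76 ± 0.13. Among genes that rose, Ppp1r3c, a glycogen-targeting phosphatase subunit, changed by 1.14 ± 0.12, the signalling regulator Rgs4 by 1.11 ± 0.14, the transcription factor Klf2 by 0.98 ± 0.13, the glycerol channel Aqp7 by 0.91 ± 0.17, the lipid epoxide hydrolase Ephx2 by 0.88 ± 0.18 and the estrogen receptor Esr1 by 0.80 ± 0.16. The cGMP-dependent kinase Prkg1 changed by 0.92 ± 0.17 and the cyclic nucleotide phosphodiesterase Pde1a by 1.00 ± 0.13, whereas the related kinase Prkg2 had changed by -1.88 ± 0.15.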
